A study of Homo sapiens with 32 samples.

Results

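The subject was the binding of HNF4α at 9 genes of the circadian clock: BMAL1, CLOCK, PER1, PER2, PER3, CRY1, CRY2, NR1D1 and NR1D2. They were chosen by name from 20037 protein-coding genes, with earlier results of these data known. A peak belonged to a gene when its summit, the position of highest signal, was no more than 50 kb away from the GRCh38 span of that gene. This gave 409 of the 337294 peaks in 18 peak lists. Peaks that overlapped by at least 1 bp in any lists were merged into 72 sites, named by gene and by order along the chromosome (BMAL1-7 is the BMAL1 site with number 7). Of these sites, 50 occurred in both lists of at least 1 group and 15 in 1 list only.

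HNF4α is a nuclear receptor of liver, gut and pancreas, made from the promoters P1 and P2 of its gene, which give proteins with different N-termini. The study used ChIP-seq, which sequences the DNA that an antibody pulls down with a protein, in 3 human pancreatic ductal adenocarcinoma lines. Panc10.05 cells carried a doxycycline-induced P1-a2 form (25 ng/mL) or P2-a8 form (12.5 ng/mL), so form and dose differed together there. BxPC3 cells carried the same forms, both at 500 ng/mL. AsPC1 cells (labelled ASPC1), for which the labels give no doxycycline, carried CRISPRi guides labelled sgNC, sgP1 or sgP2. CRISPRi represses a gene at its promoter, here P1 or P2 of HNF4A. An antibody that the labels name HNF4α without a form (called pan here) was used in all 7 of these arms, and one against HNF4α-P1 in AsPC1 sgNC and sgP2 cells. Each of the 9 groups had 2 libraries. The labels do not say whether these came from separate cultures, so p-values measure only the spread between these libraries. The lists do not show how much HNF4α each arm contained.

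The clock is a feedback loop of transcription. BMAL1 and CLOCK pair and activate genes with E-box motifs, among them PER and CRY genes, whose proteins return to block the pair. NR1D1 and NR1D2 (REV-ERBα and REV-ERBβ) are nuclear receptors that repress BMAL1, and the loop is tied to metabolism in liver and gut.

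Promoter bases are shown for the genes where a reproducible site lay within 1 kb of a start, 5 genes at most, ordered by the number of lists with that site. They are the 250 bases before a start, from RefSeq (GRCh38.p14), written 5′ to 3′ on the gene's strand. Capitals mark CACGTG, the canonical E-box bound by BMAL1 and CLOCK, and AGGTCA, a nuclear receptor half-site (TGACCT on the other strand). The HNF4 motif CAAAGTCCA was searched too, all on both strands, and these motifs share no overlap in the bases shown.
NR1D1 (minus strand, chr17:40100590-40100839): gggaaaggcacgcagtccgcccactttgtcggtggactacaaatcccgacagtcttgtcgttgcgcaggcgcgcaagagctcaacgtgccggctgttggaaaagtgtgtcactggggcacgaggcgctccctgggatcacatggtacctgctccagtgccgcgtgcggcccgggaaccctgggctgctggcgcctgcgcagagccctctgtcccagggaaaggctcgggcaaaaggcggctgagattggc
PER1 (minus strand, chr17:8152405-8152654): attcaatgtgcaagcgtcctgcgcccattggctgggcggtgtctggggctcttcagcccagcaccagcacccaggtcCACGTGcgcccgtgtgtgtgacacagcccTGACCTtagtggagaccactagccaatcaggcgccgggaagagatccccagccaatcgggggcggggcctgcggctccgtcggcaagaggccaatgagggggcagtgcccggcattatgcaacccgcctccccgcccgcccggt
PER3 (plus strand, chr1:7784041-7784290): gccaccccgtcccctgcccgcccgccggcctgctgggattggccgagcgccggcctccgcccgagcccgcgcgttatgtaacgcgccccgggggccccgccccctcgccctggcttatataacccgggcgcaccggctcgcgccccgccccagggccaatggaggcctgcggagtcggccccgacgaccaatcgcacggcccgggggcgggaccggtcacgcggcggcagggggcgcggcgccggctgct
CRY1 (minus strand, chr12:107093550-107093799): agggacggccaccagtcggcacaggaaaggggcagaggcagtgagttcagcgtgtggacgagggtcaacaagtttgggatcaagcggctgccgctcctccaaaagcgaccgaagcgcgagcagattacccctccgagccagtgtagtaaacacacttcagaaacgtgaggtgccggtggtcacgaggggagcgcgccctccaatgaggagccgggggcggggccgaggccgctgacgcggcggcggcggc
BMAL1 (plus strand, chr11:13277540-13277789): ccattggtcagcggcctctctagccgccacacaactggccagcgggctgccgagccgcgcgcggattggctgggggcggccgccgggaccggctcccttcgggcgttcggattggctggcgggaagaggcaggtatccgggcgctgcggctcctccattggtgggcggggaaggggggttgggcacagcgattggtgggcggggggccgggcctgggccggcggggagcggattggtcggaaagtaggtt

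PER1 was the only gene of these 5 with a capital motif: its E-box began 173 bases and its AGGTCA match 144 bases before the start. Peaks overlapped these 250 bases in 9 lists at NR1D1, 7 at PER1, 6 at PER3, 3 at BMAL1 and 1 at CRY1. Among the members not shown, CRY2 held an AGGTCA match 62 and 64 bases before its 2 annotated starts, and NR1D2 held CACGTG 155 and 105 bases before one of its starts. No member's 250 bases held CAAAGTCCA, which 0.308% of all 22078 promoter windows of this length hold. AGGTCA was in 10.4% of these windows and CACGTG in 7.35%. The sequence under sites away from starts was not analysed here.

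Depth is unknown, since the lists hold no read counts, and a missing peak means only that none passed the authors' threshold. The lists held 12681 to 41808 peaks in the induced lines, 11686 to 24295 in AsPC1 with the pan antibody and 260 to 5200 with the P1 antibody. The authors' threshold on −log10 q was near 8 for the induced lists, judging by their lowest values, and near 2 for the AsPC1 lists. Line, induced or endogenous HNF4α and this threshold therefore differ together and cannot be told apart. The P1 antibody gave 697 and 260 peaks in sgNC cells and 5200 and 3916 in sgP2 cells.

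**Figure D1:**
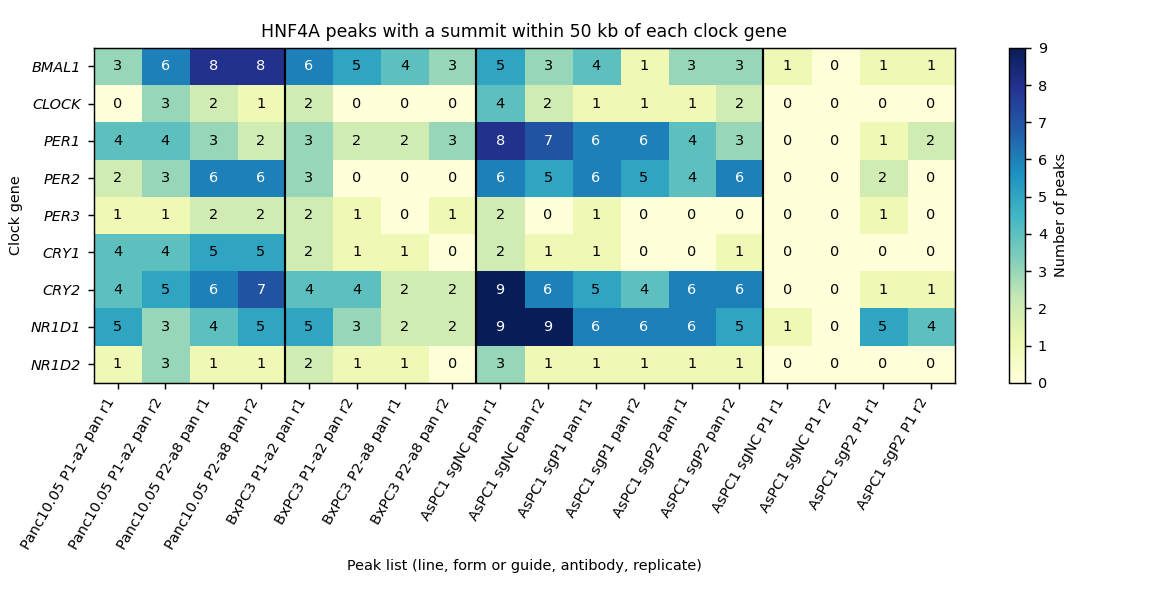
Number of peaks (colour and digit) with a summit within 50 kb of each clock gene (rows) in each of the 18 lists (columns, 2 replicates a group). Vertical lines separate Panc10.05, BxPC3, AsPC1 with the pan antibody and AsPC1 with the P1 antibody; NR1D1 and CRY2 reach 9 peaks in AsPC1 sgNC replicate 1, and BMAL1 reaches 8 in both Panc10.05 P2-a8 lists.

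Each of the 9 clock genes had an HNF4α peak in at least 10 of the 18 lists. BMAL1, PER1, CRY2 and NR1D1 had a peak in all 14 pan lists. CLOCK had one in 10 pan lists, PER2 in 11, PER3 in 9, CRY1 in 11 and NR1D2 in 13. NR1D1 gathered the most peaks over all lists (80), followed by CRY2 (72), BMAL1 (65), PER1 (60) and PER2 (54). CRY1 (27), CLOCK (19), NR1D2 (18) and PER3 (14) had fewer, although the searched window was widest at CLOCK (219 kb) and narrowest at NR1D1 (108 kb). The plot of peaks per gene and list shows this order.

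Most clock genes were bound in most arms, and most genes of the genome were too. In Panc10.05, 8 of 9 clock genes had a peak in both P1-a2 lists (all but CLOCK), against 74.5% of all 20037 genes. All 9 had one in both P2-a8 lists, against 79.5%. In BxPC3, 7 had one in both P1-a2 lists (all but CLOCK and PER2), against 76.6%. Only BMAL1, PER1, CRY2 and NR1D1, 4 of 9, had one in both of the shorter P2-a8 lists, against 45.4%. In AsPC1 with the pan antibody, 8 of 9 had one in both sgNC lists (all but PER3), against 58.5%. CRY1 and PER3 were the genes missing under each guide, with 7 of 9 in both sgP1 lists against 50.6% and 7 of 9 in both sgP2 lists against 52.0%. With the P1 antibody no clock gene had a peak in both sgNC lists, against 2.31%. BMAL1, PER1, CRY2 and NR1D1, 4 of 9, had one in both sgP2 lists, against 23.7%. At PER1 the sgP2 lists shared no site: replicate 1 held PER1-4, and replicate 2 held PER1-1 and PER1-6. The members' spans (7797 to 119007 bp, median 56022) were longer than those of all genes (median 24115 bp), and whether this moved the counts was not tested.

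BMAL1 encodes the partner of CLOCK in the activating pair. Its site BMAL1-7 (chr11:13332626-13334279, inside the gene, 55.8 kb after the start) was in 17 of 18 lists, more than any other clock site. Its fold enrichment over background, as the authors give it, was 33.1 and 26.2 in Panc10.05 P1-a2, 16.8 and 11.5 in Panc10.05 P2-a8, 19.2 and 8.5 in BxPC3 P1-a2, and 10.4 and 11.5 in BxPC3 P2-a8. In AsPC1 it was 31.8 and 22.2 with sgNC, 19.2 and 17.2 with sgP1, and 23.5 and 18.7 with sgP2. Fold is comparable only within a list, so strength is given below as a percentile of fold within its list (100 is strongest). A list that reaches weaker peaks tends to place the same peak at a higher percentile. AsPC1 lists reach a −log10 q near 2 and induced lists one near 8, so their percentiles are not on the same scale. BMAL1-7 stood at percentiles 31.8 to 92.2 in the induced lists and 91.3 to 97 in the AsPC1 pan lists, and at 80.7 and 43.4 in the P1-antibody lists of sgP2 cells. It also carried 1 of the 2 clock peaks of the P1 antibody in sgNC cells (percentile 32.3).

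The promoter site of BMAL1 was weaker and less frequent than this intragenic one. BMAL1-4 (chr11:13277734-13278752, over the start) was in 3 Panc10.05 lists, no BxPC3 list and 2 AsPC1 lists, at percentiles 2.16 to 51.2. BMAL1-3 (chr11:13271043-13271646, 5.32 kb before a start) was in 11 lists, with percentiles from 9.44 to 14.2 for Panc10.05, from 19.9 to 80.4 for BxPC3 and from 32.8 to 79.6 for AsPC1. BMAL1-1 (chr11:13242996-13243764, 33.3 kb before a start) was in all 8 induced lists, at percentiles 4.03 to 83.7, and in no AsPC1 list. The strength of BMAL1-1 and BMAL1-3 thus varied widely among lists that held them.

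CLOCK, the partner of BMAL1, had few reproducible sites. CLOCK-4 (chr4:55438069-55438745, within the spans of both CLOCK and its neighbour TMEM165, 107 kb after the CLOCK start) was in all 6 AsPC1 pan lists at percentiles 26.3 to 72.5 and in no induced list. CLOCK-1 (chr4:55388376-55388827) lay nearest to the start of TMEM165 and was in both Panc10.05 P2-a8 lists (percentiles 55.1 and 21.3) and 1 BxPC3 list (68.1). At the CLOCK start, CLOCK-5 (chr4:55545841-55546484) occurred in 1 Panc10.05 and 1 AsPC1 list, never in both lists of a group.

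PER1 encodes a repressor of the pair, and it is induced early by clock-resetting signals. Its start site PER1-4 (chr17:8151902-8152547) overlaps the printed promoter bases. In AsPC1 with the pan antibody its fold was 17.1 and 12.5 with sgNC, 11.7 and 9.79 with sgP1, and 13.9 and 8.54 with sgP2, at percentiles 64.5 to 87.6. It had 1 P1-antibody peak in sgP2 cells (percentile 79). Among the 8 induced lists it appeared once, in Panc10.05 P1-a2 replicate 1, at percentile 1.29. The PER1 start was therefore in the upper part of every AsPC1 pan list and near the bottom of, or missing from, every induced list.

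The other strong sites of this locus lay away from the PER1 start. PER1-1 (chr17:8117608-8120903) was in all 14 pan lists, at percentiles 27.3 to 91.5 in the induced lines and 83 to 96.1 in AsPC1. It spans the start of ALOXE3, 33.2 kb after the PER1 start, is 3296 bp wide and holds up to 3 peaks in a list, so its lists need not share a summit. PER1-6 (chr17:8158516-8159421, 6.57 kb before the PER1 start and 3902 bp from that of VAMP2) was in 14 lists, with summits within 66 bp of each other. Its percentiles were 66.7 to 81 in Panc10.05, 69.6 to 94.6 in AsPC1 with the pan antibody, 63.7 and 78.6 in BxPC3 P1-a2, and 2.27 in the 1 BxPC3 P2-a8 list that held it.

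PER2, a core repressor close to PER1 in function, had 13 sites, the most of any member. The start used for PER2 (chr2:238288610) lies inside its span, which reaches 238300065. PER2-7 (chr2:238274086-238274773, inside the gene, 14.2 kb after that start) and PER2-13 (chr2:238305658-238306697, 17.5 kb before it) were in all 6 AsPC1 pan lists and in no induced list. The AsPC1 pan summits of PER2-13 lay only 5.99 to 6.08 kb outside the span. Percentiles were 45.3 to 84.5 at PER2-7 and 68.1 to 79.9 at PER2-13, which also had a P1-antibody peak in sgP2 cells (56.5). PER2-11 (chr2:238294406-238295164) was in 12 lists, at 76.1 to 94 in AsPC1 with the pan antibody and 11.6 to 54.5 in Panc10.05. PER2-5 (chr2:238263091-238263783) was in all Panc10.05 and AsPC1 pan lists and in no BxPC3 list. In BxPC3, PER2 had 3 peaks in P1-a2 replicate 1 and none in the other 3 lists.

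PER3, a less essential PER gene, had a site over its start, PER3-2 (chr1:7783900-7784650), in 6 lists at percentiles 21.2 to 57.8. PER3-3 (chr1:7790402-7790971, 6.24 kb after the start) was in all 4 Panc10.05 lists at 52.3 to 87.1 and in no other list. CRY1, a strong repressor of the pair, had CRY1-1 (chr12:106976134-106976834, 117 kb after the start and nearer to that of MTERF2) in 10 lists, at percentiles 19.4 to 71.9. CRY1-5 (chr12:107093951-107094578, 692 bp before the start) was in all 4 Panc10.05 and 2 AsPC1 lists, at 2.33 to 33.4. CRY1-6 (chr12:107134071-107134975), 41.1 kb before the start, was in all 4 Panc10.05 lists at 41.4 to 83.1 and in no other list.

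CRY2, the other cryptochrome repressor, had CRY2-2 (chr11:45843213-45844210, 3.34 kb before a start) in 15 lists. Its percentiles were 87.8 to 94.6 in AsPC1 with the pan antibody, 84.4 and 84.8 in BxPC3 P1-a2, 37.4 and 17.3 in BxPC3 P2-a8, 1.75 to 51.8 in Panc10.05, and 60.7 and 39.1 with the P1 antibody in sgP2 cells. Every AsPC1 pan list ranked this site higher than any induced list did, an order not tested at a common threshold on −log10 q. CRY2-10 (chr11:45929366-45930504) had the opposite pattern, with percentiles of 79.7 to 98.8 in all 8 induced lists and no peak in any AsPC1 list. It lies within the span of PHF21A, 82.5 kb from the CRY2 start, so its link to CRY2 rests on distance alone. CRY2-4 (chr11:45848689-45849373, 1.56 kb after a start) was in all 6 AsPC1 pan lists, at low percentiles of 5.92 to 50.2, and in no induced list. CRY2-8 (chr11:45917220-45918853), over the start of PEX16, was in 12 lists at percentiles 3.64 to 85.6.

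NR1D1 encodes REV-ERBα, the repressor of BMAL1, and had the most peaks over all lists of the 9 (80). The merged site NR1D1-6 (chr17:40100276-40101767) covers its start and the printed promoter bases, with summits within 105 bp of each other and their middle 564 bp before the start. Single peaks reached the start itself only in Panc10.05 P1-a2 replicate 2 and, with the pan antibody, in AsPC1 sgNC replicate 1 and sgP2 replicate 2. The site was in 15 lists. Its fold was 38.6 and 41.7 in Panc10.05 P1-a2, 31 and 15.1 in Panc10.05 P2-a8, 12.9 and 11.9 in BxPC3 P1-a2, and 9.76 in 1 BxPC3 P2-a8 list. In AsPC1 it was 36.3 and 13.4 with sgNC, 27.1 and 16.3 with sgP1, 16.5 and 22.4 with sgP2, and 10.5 and 14.1 with the P1 antibody in sgP2 cells. Its percentiles ranged from 70.7 to 95.1 for Panc10.05, from 46.3 to 64.5 for BxPC3, 84.4 to 98.1 in AsPC1 with the pan antibody, and 77.8 and 88.3 with the P1 antibody. In BxPC3 this site ranked below where any Panc10.05 list placed it. It also ranked below every AsPC1 list that held it, an order not tested at a common threshold on −log10 q.

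Further strong sites flanked the NR1D1 start. NR1D1-8 (chr17:40111067-40112000, 10.9 kb before the NR1D1 start and 10521 bp from that of MSL1) was in all 14 pan lists and both sgP2 P1-antibody lists. Panc10.05 lists placed it at percentiles 93.7 to 98.3, BxPC3 lists at 27.2 to 93.9 and AsPC1 lists at 86.2 to 97.1 with the pan antibody. NR1D1-5 (chr17:40097640-40099571, inside the gene) stood at 91.5 to 96.1 in Panc10.05 and 65.1 to 91.3 in AsPC1 with the pan antibody, although its summits lay up to 1188 bp apart. NR1D1-2 (chr17:40070750-40072245), within the span of the thyroid hormone receptor gene THRA, was in all 6 AsPC1 pan lists at 79.1 to 98.8. It was in only 2 of the 8 induced lists, at 43.9 and 43.5.

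NR1D2, which encodes REV-ERBβ, had 4 sites. NR1D2-1 (chr3:23915221-23915968, within NKIRAS1 and 910 bp from the start of RPL15) was in all 6 AsPC1 pan lists at percentiles 11.2 to 56.2 and in no induced list. NR1D2-4 (chr3:23949895-23950497, 4.15 kb after a start) was in 3 Panc10.05 and 3 BxPC3 lists at 6.22 to 61.5 and in no AsPC1 list. The merged sites that cover the NR1D1 and NR1D2 starts thus differed in how often they were listed: NR1D2-3, over the NR1D2 start, occurred in 1 Panc10.05 and 1 AsPC1 list.

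**Figure D2:**
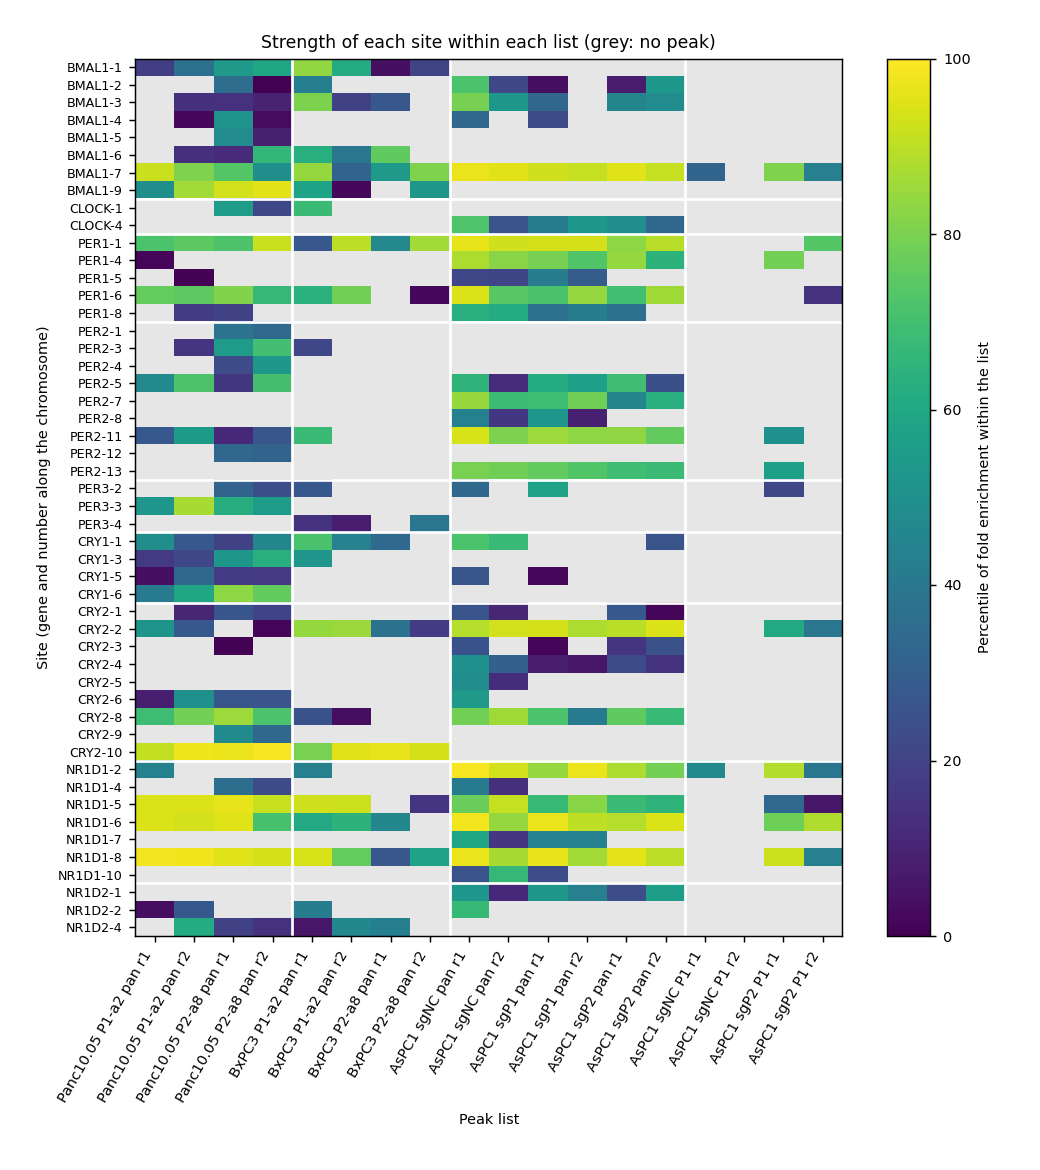
Percentile of fold enrichment within each list (colour, 100 strongest, grey no peak; the strongest peak where a list has several) for the 50 sites found in both lists of a group, rows by gene and columns by list. PER1-4, PER2-7, PER2-13 and NR1D1-2 are bright in AsPC1 and grey or dark in most induced lists, and CRY2-10 is bright in all 8 induced lists and grey in AsPC1.

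Clock sites lay inside the genes, around them and at their starts. Of the 72 sites, 31 had their middle summit inside a member's span and 36 had a member's start as the nearest protein-coding start. Within 1 kb of a member's start there were 10 sites, 6 of them in both lists of a group. For comparison, 4.15% to 17.2% of all pan summits lay within 1 kb of any protein-coding start, and 2.02% to 2.69% did after a shift of 100 kb, although a site is a merged region and a summit a single peak. At this distance the farthest included site was 49 kb from a span and the nearest excluded one 51.5 kb.

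**Figure D3:**
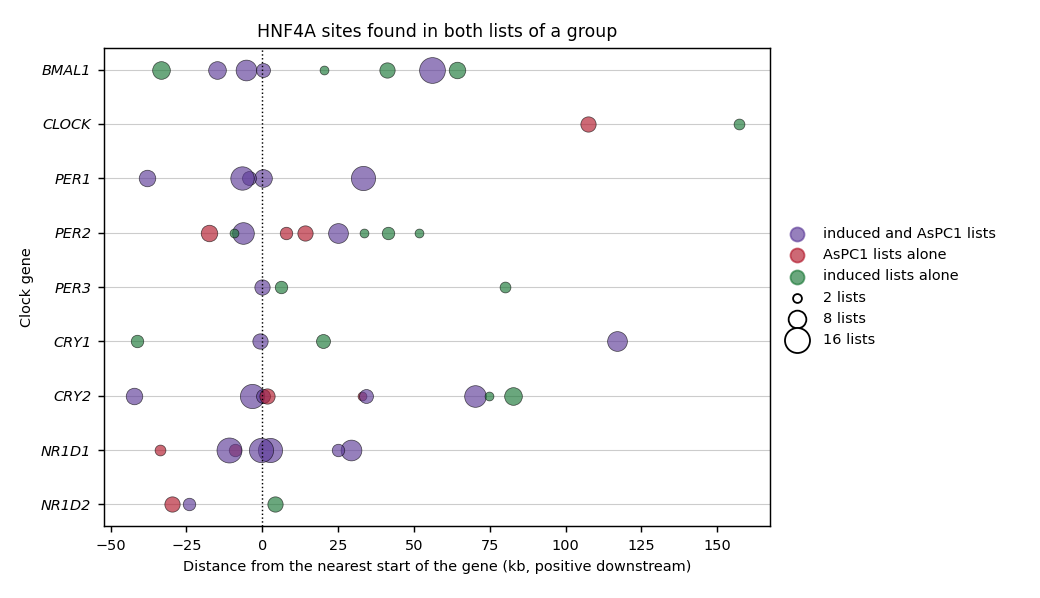
Distance in kb of each of the 50 sites from the nearest start of its clock gene (horizontal axis, positive downstream, 0 at the dotted line), with circle area proportional to the number of lists. The start used for PER2 lies inside its span. Circles at or near the starts are largest at NR1D1 (15 lists), and purple sites were in induced and AsPC1 pan lists, red in AsPC1 alone, green in induced lines alone.

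Clock loci took a larger share of the AsPC1 lists than of the induced ones. The share of all listed peaks that lay at the 9 loci ran from 0.0937% to 0.110% for Panc10.05, from 0.0504% to 0.0946% for BxPC3 and from 0.179% to 0.225% for AsPC1 with the pan antibody, so the AsPC1 lists did not overlap the others. The means were 0.205% ± 0.0168 (SD, n = 6) in AsPC1 and 0.0855% ± 0.0191 (SD, n = 8) in the induced lines. The difference of 0.119 percentage points had p = 0.000333 in a two-sided exact permutation test over 3003 labellings of the lists, the smallest p it allows, and 0.004 after Benjamini-Hochberg adjustment over 12 comparisons. This comparison was chosen after seeing the data. The AsPC1 lists pool the guides of a single line, and the induced lists pool both forms of Panc10.05 and BxPC3. The test treated all these lists as exchangeable, so its p does not measure the spread between cell lines. With AsPC1 peaks limited to a −log10 q of at least 8, the AsPC1 shares were 0.179% to 0.230%. The raw number of clock peaks (31.5 against 24.9 on average) did not separate the lists (exact permutation p = 0.246). Other measures moved with this share: 14.6% to 17.2% of AsPC1 pan summits lay within 1 kb of a protein-coding start, against 4.15% to 11.03% in the induced lists, and the 18 other clock pathway genes also took more (0.256% to 0.2997% against 0.181% to 0.244%). Their part in the result was not tested.

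**Figure D4:**
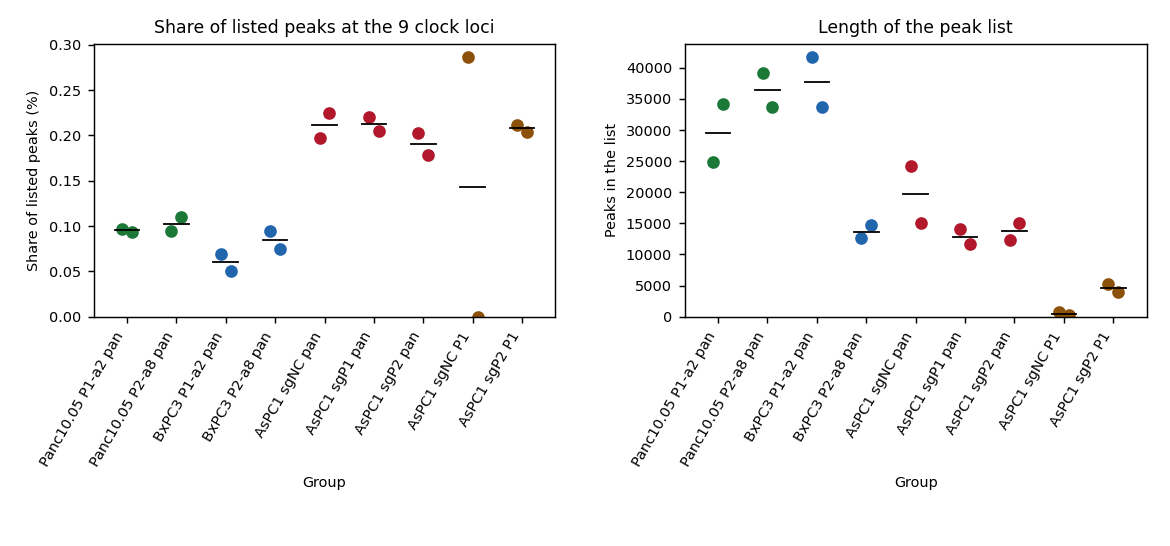
Left, share of each list's peaks (%) at the 9 clock loci; right, number of peaks in the list, for the 9 groups (points, libraries; bars, means of 2; green Panc10.05, blue BxPC3, red AsPC1 pan, brown AsPC1 P1 antibody). The 6 AsPC1 pan lists lie between 0.179% and 0.225%, above all 8 induced lists, with 11686 to 24295 peaks in those lists.

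PER2, CRY2 and NR1D1 had more peaks relative to list length in AsPC1. Per 10000 listed peaks, PER2 had 2.47 to 4.28 (median 3.64) in the AsPC1 pan lists and 0 to 1.78 (median 0.762) in the induced lists. CRY2 had 3.42 to 4.86 (median 3.84) against 0.957 to 2.08 (median 1.5), and NR1D1 had 3.31 to 5.95 (median 4.57) against 0.879 to 2.01 (median 1.28). For these 3 of 9 genes every AsPC1 list was above every induced list, as it was for 9.67% of all genes. For none of the 9 was every AsPC1 list lower, against 5.32% of all genes. PER1 overlapped narrowly, with 1.98 to 5.13 against 0.593 to 2.05. With a −log10 q of at least 8 in AsPC1 there were again 3, PER1, PER2 and NR1D1, since CRY2 then overlapped (1.88 to 4.71 against 0.957 to 2.08). At this threshold, chosen for these rates after seeing the data, 10.2% of all genes were higher in every AsPC1 list and 7.20% lower, with none of the 9 lower. BMAL1 showed no such separation, at 0.856 to 2.85 in AsPC1 and 1.21 to 3.15 in the induced lists, and neither did CRY1 (0 to 0.823 against 0 to 1.61) or PER3 (0 to 0.823 against 0 to 0.682). CLOCK (0.712 to 1.65 against 0 to 0.879) and NR1D2 (0.661 to 1.24 against 0 to 0.879) had higher medians in AsPC1 (1.09 against 0.149, and 0.761 against 0.35), with overlapping lists.

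**Figure D5:**
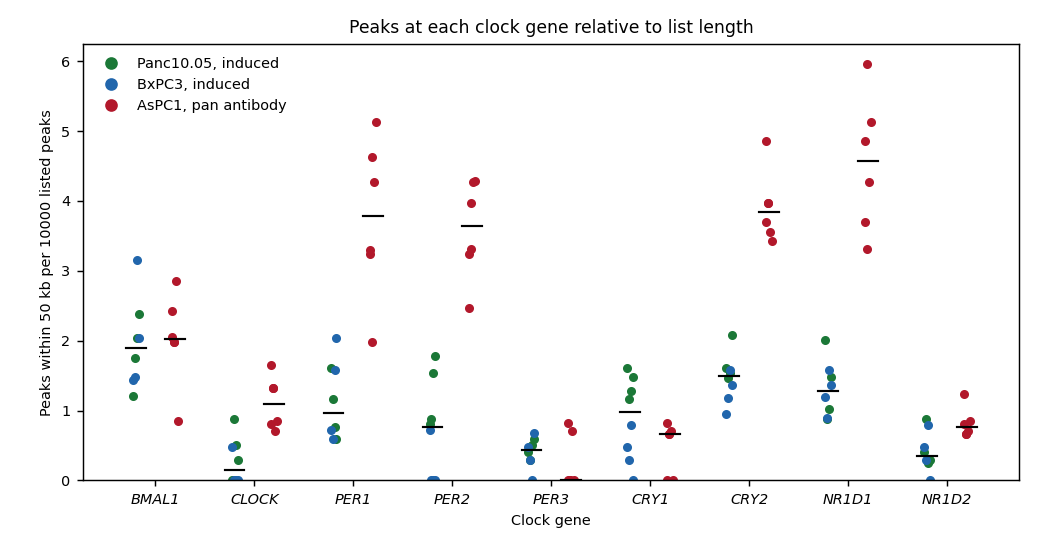
Peaks within 50 kb of each clock gene per 10000 listed peaks (vertical axis), with a point for each pan list and bars at the medians of the 8 induced lists (green Panc10.05, blue BxPC3) and the 6 AsPC1 lists (red). The red points of PER2, CRY2 and NR1D1 lie above all others of the same gene, and those of BMAL1, PER3 and CRY1 do not.

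By site, 5 of 72 were in all 6 AsPC1 pan lists and no induced list (CLOCK-4, PER2-7, PER2-13, CRY2-4 and NR1D2-1), against 1.19% of all merged regions. Some of these AsPC1 peaks had a −log10 q below 8, near the threshold of the induced lists. Examples were CLOCK-4 (5.79 in sgNC replicate 2), CRY2-4 (4.29 in sgP1 replicate 2) and NR1D2-1 (5.51 in sgP2 replicate 1). All AsPC1 pan peaks of PER2-7 and PER2-13 were above 8. The share at a common threshold was not tested. BMAL1-1 and CRY2-10, 2 of 72, were in all 8 induced lists and no AsPC1 pan list, against 2.45%. BMAL1-7, PER1-1 and NR1D1-8, 3 of 72, were in all 14 pan lists, against 2.98%. Between the induced lines, 5 of 51 sites were in all 4 Panc10.05 lists and no BxPC3 list (PER2-5, PER3-3, CRY1-5, CRY1-6 and CRY2-6), against 5.55%. The reverse held for 0 of 51, against 2.09%. Panc10.05 had 24 to 37 clock peaks a list and BxPC3 11 to 29, a difference of 15.2 (two-sided exact permutation p = 0.0571, adjusted 0.33). With all 8 lists cut to the length of the shortest, a setting added after seeing the data, the difference was 2.25 (exact permutation p = 0.2).

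The induced forms were compared within each line. Panc10.05 had 24 and 32 clock peaks with P1-a2 and 37 and 37 with P2-a8. BxPC3 went the other way, with 29 and 17 with P1-a2 and 12 and 11 with P2-a8. In neither line did the forms overlap, but 2 lists against 2 cannot give a p below 0.33, which both reached (adjusted 0.417). Mean list lengths had the same order, with overlapping lists in Panc10.05 (24828 and 34146 against 39111 and 33646 in Panc10.05, 41808 and 33737 against 12681 and 14666 in BxPC3). Without P1-a2 replicate 1 the difference was −5 in Panc10.05 and 5.5 in BxPC3, from −9 and 11.5. At equal list length within a line, the differences between forms turned to 2 in Panc10.05 and −3.5 in BxPC3.

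Sites were also compared with the 4 lists of a line or comparison merged on their own. In Panc10.05, 9 of 46 were in both P2-a8 lists and neither P1-a2 list (BMAL1-2, BMAL1-5, CLOCK-1, PER2-1, PER2-4, PER2-12, PER3-2, CRY2-9 and NR1D1-4), against 10.9% of all merged regions of these 4 lists. NR1D2-2 was the 1 site with the reverse pattern, against 3.64%. At equal list length there were 3 in each direction, and without P1-a2 replicate 1 the P1-a2 count was 5. In BxPC3, CRY2-8 was the 1 of 30 sites in both P1-a2 lists and neither P2-a8 list, although 28.2% of all regions were. None had the reverse pattern, against 0.129%. BxPC3 P1-a2 replicate 2 decided this count: without it, 14 sites were in the remaining P1-a2 list and neither P2-a8 list.

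Fewer clock peaks were listed under CRISPRi in AsPC1. With the pan antibody, sgNC cells had 48 and 34, sgP1 cells 31 and 24 and sgP2 cells 25 and 27. Neither guide overlapped sgNC. Pooled over both guides, the difference from sgNC was −14.2 (two-sided exact permutation p = 0.0667, the smallest that 15 labellings allow, adjusted 0.33). For each guide alone it was −13.5 (sgP1) and −15 (sgP2), each with an exact permutation p of 0.33. Without sgNC replicate 1, the longest AsPC1 list with 24295 peaks, these were −6.5 and −8. At equal list length the differences were 0.5 and 0, and the clock shares of the lists overlapped: 0.198% and 0.225% with sgNC, 0.221% and 0.205% with sgP1, 0.203% and 0.179% with sgP2. The 2 guide comparisons share the sgNC libraries.

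Some sites listed in sgNC were not listed under a guide. Against sgP1 there were 4 of 52 (CRY1-1, CRY2-1, CRY2-5 and NR1D1-4), where 8.97% of all regions were of this kind. Against sgP2 there were 6 of 53 (PER1-5, PER2-8, CRY2-5, NR1D1-4, NR1D1-7 and NR1D1-10), where 7.20% were. Without sgNC replicate 2 these counts were 18 and 22. PER1-5, for example, stood at percentiles 21.2 and 20.7 in sgNC, and NR1D1-4 at 41.1 and 14.1. No clock site was in both lists of sgP1 and neither of sgNC, against 0.409%, or in both of sgP2 and neither of sgNC, against 0.407%. Between the guides, PER1-5, PER2-8 and NR1D1-7 were in both sgP1 lists and neither sgP2 list, 3 of 39 against 2.75%. CRY2-1 was the 1 site with the reverse, against 4.32%. BMAL1-7, PER1-4, CRY2-2 and NR1D1-6 were among the 17 of 72 sites listed in all 6 of these lists, against 9.54% of the regions merged over the 14 pan lists.

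The P1 antibody listed clock sites in sgP2 cells. It gave 11 and 8 clock peaks there and 2 and 0 in sgNC cells, a difference of 8.5 (two-sided exact permutation p = 0.33, the smallest possible). The list lengths moved with it (5200 and 3916 peaks against 697 and 260), and lists cut to 260 peaks hold too few clock peaks to compare. Of the 13 clock regions of this antibody's lists, merged on their own, CRY2-2, NR1D1-5, NR1D1-6 and NR1D1-8 were in both sgP2 lists and neither sgNC list, 4 of 13, against 36.0% of all its regions. None had the reverse, against 0.0638%. BMAL1-7 and NR1D1-2 were also in both sgP2 lists, and both had a peak in sgNC replicate 1. Without sgP2 replicate 2 the count was 9. NR1D1 led the members here, with 5 and 4 peaks in the sgP2 lists.

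In the sgP2 cells 10 of 11 and 8 of 8 of these peaks overlapped a pan peak of the same genotype, as did 88.1% and 96.1% of all peaks in the same lists. In sgNC replicate 1 it was 2 of 2, against 91.8% of all its peaks. The 1 without such an overlap was the PER3-2 peak of sgP2 replicate 1. The P1 and pan antibodies gave similar clock shares of their lists in sgP2 cells (0.212% and 0.204% against 0.203% and 0.179%). The P1-antibody lists held 9.5 clock peaks on average and the pan lists 26 (exact permutation p = 0.33, the smallest possible). With the 4 lists cut to the length of the shortest, a setting added after seeing the data, the difference was −1 (exact permutation p = 1).

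Another 18 clock pathway genes were counted too (paralogs, nuclear receptors, the D-box and BHLHE factors, kinases and ubiquitin ligases of the clock). Of these, 14 had a peak in both Panc10.05 P1-a2 lists, against 74.5% of all genes, and 17 in both P2-a8 lists, against 79.5%. In BxPC3 it was 16 (against 76.6%) and 11 (against 45.4%). In AsPC1 with the pan antibody it was 14 with sgNC (against 58.5%), 10 with sgP1 (50.6%) and 13 with sgP2 (52.0%). With the P1 antibody it was 0 with sgNC (against 2.31%) and 6 with sgP2 (23.7%). TEF, a D-box activator, had a peak in 17 lists, and BHLHE41, a repressor of the pair, and CSNK1D, the kinase that acts on PER proteins, in 16 each. RORB was in 5 lists and TIMELESS in 6, with no AsPC1 peak at TIMELESS. Per 10000 peaks, 3 of the 18 were higher in every AsPC1 pan list than in any induced list, against 9.67% of all genes. These were NPAS2 (the paralog of CLOCK), BMAL2 and TEF. RORA, an activator of BMAL1, was the 1 that was lower (0.662 to 1.71 against 1.76 to 5.45), where 5.32% of all genes were. With a −log10 q of at least 8 in AsPC1, RORA overlapped (0 to 2.45 against 1.76 to 5.45), and FBXW11, a subunit of a ubiquitin ligase that acts on PER proteins, joined those that were higher (1.77 to 3.67 against 0 to 1.48). That made 4 of the 18 higher, against 10.2% of all genes, and 0 lower, against 7.20%.

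Across the 18 lists, each member's peak number was compared with that of other genes. Genes whose 50 kb window overlapped the member's window were left out beforehand, so neighbours that share its peaks could not appear. Pearson's r was highest with KRT78 (0.957) for BMAL1, ACAP1 (0.949) for CLOCK, RXFP3 (0.916) for PER1, NELFB (0.939) for PER2 and NUP214 (0.9) for PER3. It was highest with ZBTB45 (0.979) for CRY1, TAS1R3 (0.967) for CRY2, CDH17 (0.918) for NR1D1 and PRR14L (0.937) for NR1D2. CGRRF1, MUC5B, NT5E, TUBGCP6, NDRG2, PLEKHB2, SORBS3, BTBD16 and PLA2G15 came next for these 9 genes in order. The lists share length, line and antibody: r of a member's peak number with list length was 0.907 at BMAL1 and 0.219 at NR1D1, the highest and lowest of the 9. These values are the largest among the 20037 genes less those with overlapping windows, and are given as a description.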

How the data were processed

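The 18 deposited narrowPeak lists hold 1 library each, so peaks were called per library; the 14 input libraries were not used. Per the deposited lists, each peak has a fold enrichment (a linear ratio), −log10 p and −log10 q, a whole-number score and a summit offset. The submitters' processing notes name Bowtie2 2.2.9, MACS2 2.2.7 and the builds hg38 and mm10, with no role or order; the control used for calling and the read depth are not given in the sources used here. That the lists fit GRCh38 was checked on summits within 1 kb of a start (4.15% to 17.2% in the pan lists) against summits shifted by 100 kb (2.02% to 2.69%). Chromosome 8 peaks were left out of that check.

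For the BxPC3 a8 libraries the title and the genotype label disagree on the promoter, and the genotype (P2-a8) was used. Gene spans and the 250 bases before each start came from RefSeq tables of GRCh38.p14; 9 of 9 members matched by symbol. Distances are from the nearest start of the gene in these tables to the middle summit of a site. For PER2 the tables hold no start at the end of its span, so a site before the start used can lie inside the gene. Exons, introns and untranslated regions were not analysed here. Percentiles rank the authors' fold within a list, and fold was not compared between lists.

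Sites are described in full for the 2 sites per gene in the most lists among those in both lists of a group (ties by mean percentile); other named sites were chosen after their values were seen, or make up a stated count. For likeness, the 2 genes with the highest Pearson r over 18 lists are given, leaving out genes whose 50 kb window overlaps the member's. Of the other clock pathway genes, 1 that the naming rule would give is not reported here. The members and lists were chosen with earlier results of these data known. Comparisons used two-sided exact permutation tests over libraries, with Benjamini-Hochberg adjustment over 10 comparisons (12 where stated), in Python 3.11.15 with scipy 1.17.1. Merging was tested on simulated peaks against bedtools 2.31.1, with 0 of 28086 regions differing. Alternatives were windows of 10 and 100 kb, −log10 q of at least 8 or 20, equal list lengths, summits within 100 bp, a replicate block and leaving out each library. For each gene, the deviation of replicate 1 from its group mean was taken, on log2 of the peak number plus 1. The correlation of these deviations between the 2 groups of a comparison, over 20037 genes, was between −0.128 and 0.0933, with 2 pairs a comparison. Replicate numbers were therefore not used to pair lists.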

Additional observations from a re-analysis of the deposited data

Results flagged for a closer look

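The difference between the induced forms had opposite signs in the 2 lines. Over all 9 clock loci, P1-a2 minus P2-a8 was −9 peaks in Panc10.05 and 11.5 in BxPC3, and the lines differed by −20.5. A two-sided exact permutation test of that difference, relabelling forms within each line, gave p = 0.0556, the smallest that 36 labellings allow. At BMAL1 the differences were −3.5 and 2, apart by −5.5, and at CRY2 they were −2 and 2, apart by −4. At these 2 genes the P1-a2 lists were all below the P2-a8 lists in Panc10.05 and all above them in BxPC3. The share of all genes with this pattern was not computed, so whether these 2 are unusual is not known. The difference between lines was not tested for a single gene. Mean list length had the same opposite order in the 2 lines, and at equal list length the total difference between lines was 5.5.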

How the results depend on the processing

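With lists cut to equal length, the count differences for which the direction did not hold were 2 (Panc10.05 P1-a2 minus P2-a8), −3.5 (BxPC3 P1-a2 minus P2-a8), 0.5 (sgP1 minus sgNC), 0 (sgP2 minus sgNC and, with the P1 antibody, sgP2 minus sgNC), 0.25 (both guides minus sgNC), −0.75 (P1-a2 minus P2-a8 over both lines) and 5.5 (form difference between lines). The 0 of the P1 antibody rests on lists of 260 peaks, too few to compare. Those that kept their direction were 0.5 (sgP1 minus sgP2), −1 (sgP2, P1 antibody minus pan) and 2.25 (Panc10.05 minus BxPC3), the last pair with all lists of the comparison cut, a setting added after seeing the data. For AsPC1 pan minus induced lines the count difference was −2.04 at a −log10 q of at least 8, −5.75 at 20 and 14.5 with all lists cut to equal length (exact permutation p = 0.000333). For sgP1 minus sgP2 it was −1 at a −log10 q of 8 and 0 at 20. In the clock share, sgP2 minus sgNC was 0.0127 percentage points at a −log10 q of 8, and both guides minus sgNC 0.0213 there and 0.00938 with a 10 kb window. The cause was not tested. The share's higher level in AsPC1 kept its direction and its side of the threshold under every setting run.

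Without 1 library each, the count differences were −13 to −5 (Panc10.05 forms), 5.5 to 17.5 (BxPC3 forms), −20.5 to −6.5 (sgP1 minus sgNC), −22 to −8 (sgP2 minus sgNC), −2 to 5 (sgP1 minus sgP2), 7 to 10 (P1 antibody, sgP2 minus sgNC), −18 to −15 (P1 antibody minus pan), −21.2 to −7.25 (both guides minus sgNC), −1.75 to 4.25 (forms over both lines, −0.75 without Panc10.05 P1-a2 replicate 2), −26.5 to −14.5 (form difference between lines), 13.2 to 19.2 (Panc10.05 minus BxPC3) and 3.32 to 8.36 (AsPC1 pan minus induced). The share differences were −0.0148 to 0.000588 (Panc10.05 forms), −0.0118 to 0.0155 (sgP1 minus sgNC, −0.00586 without sgP1 replicate 1), −0.0790 to 0.208 (P1 antibody), −0.0231 to 0.00426 (both guides) and 0.114 to 0.125 (AsPC1 pan minus induced).

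BxPC3 P2-a8 had 7 clock genes with a peak in at least 1 list, and sgNC with the P1 antibody 2. The site counts were small. With a 10 kb window they were 0 (Panc10.05 P1-a2), 5 (Panc10.05 P2-a8), 0 (BxPC3 P1-a2), 1 (sgNC over sgP1) and 0 (sgP2 over sgP1). With summits within 100 bp they were 3 (Panc10.05 P1-a2), 0 (BxPC3 P1-a2), 1 (sgP1 over sgNC) and 1 (sgP2 over sgNC). At equal length they were 3 and 3 in Panc10.05, 0 (BxPC3 P1-a2), 2 (sgP1 over sgNC), 1 (sgNC over sgP1), 0 (sgNC over sgP2) and 0 (P1 antibody, sgP2). Without 1 library, when the remaining list stands for its group, they were 1 to 5 and 9 to 15 in Panc10.05, 2 to 14 and 0 to 1 in BxPC3, 0 to 1 (sgP1 over sgNC), 4 to 18 (sgNC over sgP1), 0 to 2 (sgP2 over sgNC), 7 to 22 (sgNC over sgP2), 4 to 8 (sgP1 over sgP2), 1 to 5 (sgP2 over sgP1) and 4 to 9 (P1 antibody).

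With the replicate number as a block the Panc10.05 form difference stayed at −9 and no call changed. Blocking cannot move this difference, and with 2 lists against 2 no blocked exact permutation p can go below 0.5. No call was therefore possible there. For sgP2 minus sgNC a crossed replicate block, added after seeing the data, gave 0 calls under the same limit, as did the other fits. Depth is unknown, so a peak missing from a short list cannot be told from a site below its threshold.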
